A study of Mus musculus with 32 samples.

Results

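The genes described here are those of cholesterol synthesis and of its control by the sterol regulatory element binding proteins (SREBPs), chosen by gene symbol from a list of 30. Of these, 26 were measured, with 1 array probe each, among 19505 genes in all. Acat2, Tm7sf2, Srebf1 and Nr1h2 were not analysed here. The 26 comprise 18 enzymes of synthesis, 4 genes of SREBP control, and 4 genes of liver X receptor (LXR) signalling and sterol transport or removal.

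Expression was measured on 32 arrays of total RNA from the spinal cord or cerebrum of male wild-type C57BL/6J mice, 6 to 12 weeks old and 20 to 25 g in weight at the start. The groups were spinal cord photothrombosis at 1, 3 and 7 days with spinal controls, and cerebral photothrombosis at 1, 3 and 7 days with cerebral controls, with 4 arrays in each of the 8 groups. Photothrombosis is an ischaemic injury in which light activates a dye in the blood and closes the vessels it reaches. The labels name the control groups by the model they belong to and do not say whether these mice had surgery.

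Cholesterol is built in the cell from acetyl-CoA through mevalonate, squalene and lanosterol. When sterols are scarce, SCAP escorts SREBP2 from the endoplasmic reticulum to the Golgi, where it is cut into a transcription factor for the enzymes, and when sterols are plentiful the INSIG proteins hold the complex back. Excess cholesterol is turned into oxysterols, which activate the LXRs and with them genes of efflux. Brain and cord make their own cholesterol, most of it for myelin, because plasma lipoproteins do not cross the blood-brain barrier.

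Values are log2 values that the authors centred per probe, so a value describes a sample relative to other samples of the same gene and says nothing about which of several genes is more abundant. A difference is the mean of the first-named group minus that of the second, with its standard error (SE) from limma and 4 arrays per group. A member is said to have risen or fallen where limma's Benjamini-Hochberg adjusted p over all 19505 genes was under 0.05. The control and day 1 arrays share 1 centring in the deposited table, and the day 3 and day 7 arrays do not share it. Differences of these days from control rest on an offset rebuilt per probe, and had to exceed a bound that covers the uncertainty of that offset. Differences between the tissues on the same day, and between their responses, need no such offset. Nothing in the labels says that each array is a separate animal, so the spread behind each p-value is that between these samples and may be technical. The sample titles of each group fall in a number range of their own, and those of spinal day 7 alone begin with another letter than all the others. A batch that followed the titles and the group cannot be told apart. This touches every comparison here, and those with spinal day 7 through the letter as well. Replicate numbers here follow the order of the deposited samples, as the labels carry none. The first replicate of spinal day 3 stood apart from the other arrays of its group, with an array weight of 0.224, and its effect is given where it matters. Within groups the median gene had an SD between 0.138 (cerebral day 3) and 0.207 (spinal day 3) on the log2 scale.

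In the injured spinal cord most enzymes of cholesterol synthesis were lower at day 7, and in the injured cerebrum none passed as lower. At spinal day 7, 16 of the 26 members had fallen and 4 had risen, where 34.6% of all genes tested were called (18.4% as lower and 16.3% as higher). Among the 18 enzymes 12 fell and 1 rose. The median difference was -0.88 over the members, against -0.096 over all genes. By stage of the pathway it was -1.06 over the 7 genes of the mevalonate arm, -1.03 over the 3 from squalene to lanosterol and -0.84 over the 8 from lanosterol to cholesterol. In 19 of the 26 members all 4 spinal day 7 arrays lay below all 4 spinal controls, which was so for 24.8% of all genes. In bulk tissue, fewer cells of a type and less RNA per cell cannot be told apart.

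**Figure D1:**
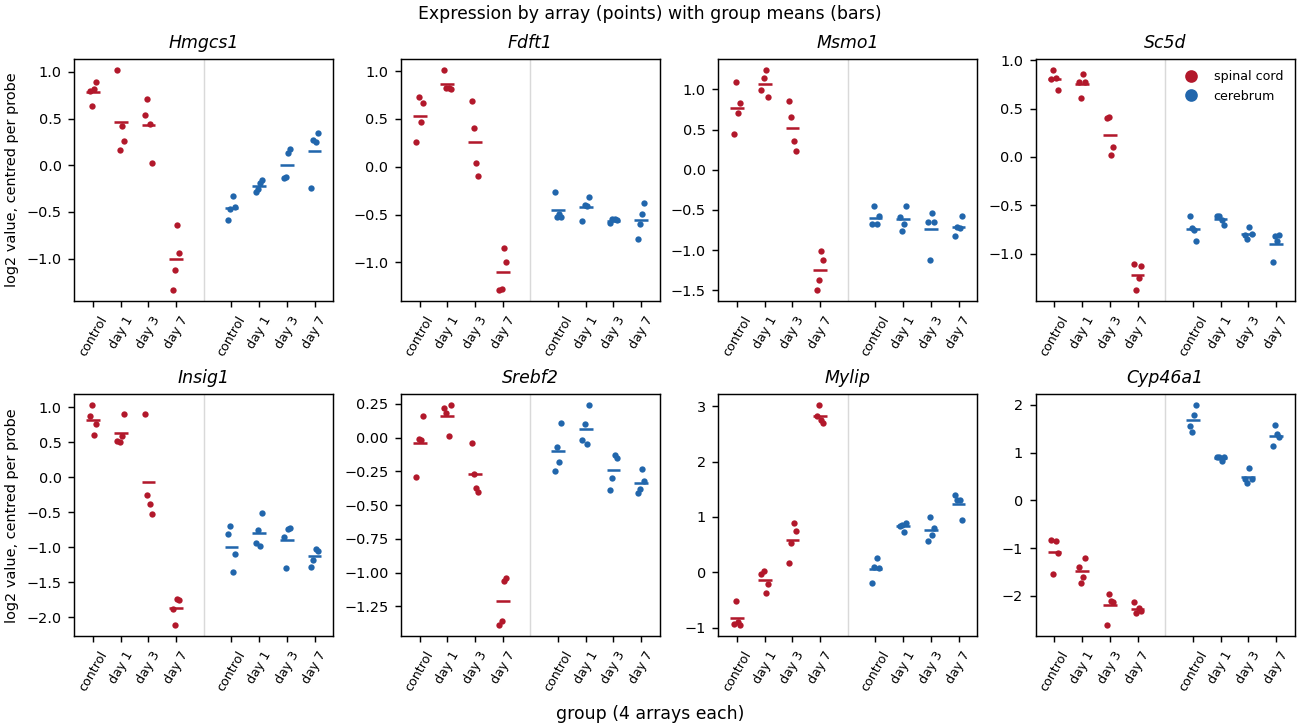
Log2 values (centred per probe, vertical axes) of 8 members on each array, with spinal cord on the left of each panel and cerebrum on the right, each from control to day 7. Points are arrays and bars are means of 4. Hmgcs1, Fdft1, Msmo1, Sc5d, Insig1 and Srebf2 have their lowest group mean at spinal day 7 and Mylip has its highest there. Cyp46a1 lies below 0 in all spinal and above 0 in all cerebral arrays.

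The fall at spinal day 7 took in the enzymes from the start of the pathway on. Hmgcs1, the cytosolic HMG-CoA synthase that feeds mevalonate production, stood at -1.34, -1.12, -0.64 and -0.94 in the spinal day 7 arrays, against 0.80, 0.63, 0.82 and 0.89 in the spinal controls. Every day 7 array was far below every control. The difference was -1.80 ± 0.16, a 3.47-fold lower level (adjusted p = 2.59e-10). Mvk and Pmvk, the kinases that phosphorylate mevalonate in turn, fell by 0.79 and 1.16 on the log2 scale. Mvd, which decarboxylates the product to isopentenyl diphosphate, fell by 0.69 (adjusted p = 0.0028). Idi1, the isomerase that acts on this unit, stood at -0.91, -0.69, -0.43 and -0.64 at spinal day 7, against 0.18, 1.11, 1.03 and 1.07 in the spinal controls. The first control was well below the other controls, and still above all day 7 arrays. Idi1 differed by -1.51 ± 0.19 (adjusted p = 3.35e-07), and Fdps, which joins the units to farnesyl diphosphate, by -1.06 ± 0.19 (adjusted p = 0.0011). Ggps1 draws farnesyl diphosphate away from sterols towards the geranylgeranyl groups of prenylated proteins. It was the only enzyme among the 18 that rose at spinal day 7, by 0.63 ± 0.16 (adjusted p = 0.0322). That call ended without spinal control replicate 1 or spinal day 7 replicate 3 or 4, at values of 0.47 to 0.59.

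At the entry to the sterol branch, Fdft1, the squalene synthase, stood at -1.29, -1.28, -0.85 and -0.99 at spinal day 7, against 0.26, 0.73, 0.47 and 0.67 in the spinal controls. No day 7 array came near a control. It was 3.1-fold lower (-1.63 ± 0.13, adjusted p = 4.57e-11). Sqle, the squalene epoxidase, fell by 1.03 (SE 0.18, adjusted p = 7.96e-05). Lss, the cyclase that makes lanosterol, differed by -0.51 ± 0.17 and did not pass the test against its bound of 0.32 (adjusted p = 0.272), although its groups did not overlap.

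Of 8 measured enzymes that turn lanosterol into cholesterol, 4 fell and 0 rose. Msmo1, the methylsterol monooxygenase, stood at -1.50, -1.37, -1.01 and -1.13 at spinal day 7, against 0.45, 1.09, 0.70 and 0.83 in the spinal controls. Sc5d, a sterol desaturase late in the pathway, stood at -1.11, -1.38, -1.25 and -1.13 at spinal day 7, against 0.81, 0.90, 0.82 and 0.69 in the spinal controls. The groups were wide apart in both genes. They were tight in Sc5d (SD 0.12 at day 7 and 0.09 in controls) and less so in Msmo1 (0.22 and 0.27). Msmo1 was 4.05-fold lower (-2.02 ± 0.14, adjusted p = 1.24e-12) and Sc5d 4.06-fold lower (-2.02 ± 0.09, adjusted p = 2.9e-16). Dhcr7, the reductase whose product is cholesterol itself, fell by 1.10 (SE 0.12, adjusted p = 1.14e-07). Nsdhl, a dehydrogenase that acts with Msmo1 in removing methyl groups, fell by 0.96 (adjusted p = 0.0279). The Nsdhl call ended without spinal control replicate 2 or 4 or spinal day 7 replicate 2 or 3, at values of -0.94 to -0.87. Cyp51, the lanosterol demethylase, differed by -0.71 ± 0.12 and did not pass against a bound of 0.47 (adjusted p = 0.077). Lbr, a sterol reductase and lamin receptor, Hsd17b7, a sterol ketoreductase, and Ebp, a sterol isomerase, were at -0.33, -0.42 and 0.23 and did not pass.

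**Figure D2:**
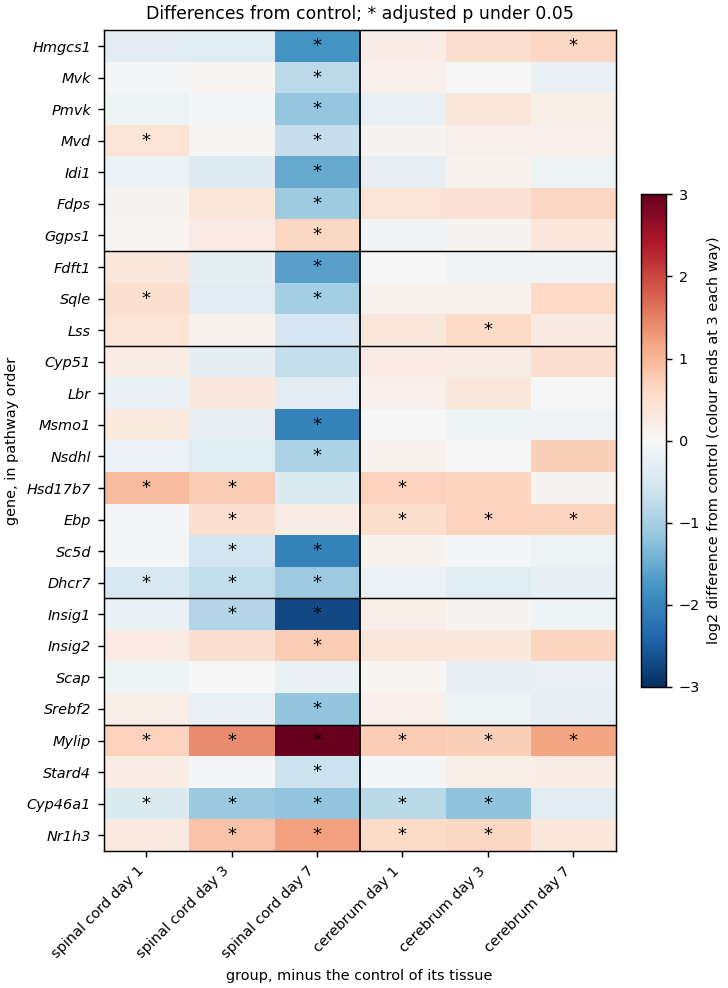
Log2 differences of the 26 members (rows, in pathway order) between each injured group and the control of its tissue (columns), coloured from blue (lower than control) to red (higher), with asterisks where the adjusted p was under 0.05. The spinal day 7 column holds 16 falls and 4 rises, while the cerebral columns hold 3 to 5 calls each.

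The control genes split. Insig1, an INSIG protein whose own gene is switched on by SREBPs, stood at -1.89, -2.12, -1.74 and -1.76 at spinal day 7, against 0.87, 1.03, 0.61 and 0.76 in the spinal controls. It was the member with the deepest fall, 6.49-fold (-2.70 ± 0.20, adjusted p = 2.88e-12). Insig2, the INSIG protein from a separate gene, went the other way, with 0.12, 0.21, 0.45 and 0.61 at spinal day 7, against -0.37, -0.32, -0.49 and -0.41 in the spinal controls. All day 7 arrays were above the controls, and the rise was 0.75 ± 0.16 (adjusted p = 0.00639). Srebf2, which encodes SREBP2, stood at -1.39, -1.36, -1.06 and -1.04 at spinal day 7, against -0.29, -0.01, -0.02 and 0.16 in the spinal controls. The ranges were apart, and Srebf2 was 2.26-fold lower (-1.18 ± 0.11, adjusted p = 1.76e-09). Scap, the escort protein, was at -0.19 ± 0.12 and did not pass (adjusted p = 0.559).

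Of the 4 genes of LXR signalling and sterol transport or removal, 2 rose and 2 fell. Mylip, an LXR-induced ubiquitin ligase that marks lipoprotein receptors for degradation, stood at 2.82, 3.02, 2.75 and 2.70 at spinal day 7, against -0.94, -0.51, -0.89 and -0.96 in the spinal controls. No other member differed by as much at spinal day 7. Mylip was 12.5-fold higher (3.65 ± 0.14, adjusted p = 9.27e-19). Nr1h3, which encodes LXR alpha, was 2.35-fold higher (1.23 ± 0.18, adjusted p = 5.88e-06), with 1.31, 1.41, 1.18 and 0.77 at spinal day 7, against -0.17, 0.11, -0.23 and 0.01 in the spinal controls. Its lowest day 7 array was above its highest control. Stard4, a carrier of cholesterol through the cytosol, fell by 0.65 (SE 0.18, adjusted p = 0.0145), and without spinal control replicate 2 was at -0.50 and no longer called. Cyp46a1, the neuronal hydroxylase that turns cholesterol into an oxysterol able to leave the brain, was 2.27-fold lower (-1.18 ± 0.15, adjusted p = 3.73e-07). With quantile normalisation on top of the values with the rebuilt offset the calls of Cyp46a1, Mvd, Nsdhl and Stard4 ended, and 16 of 26 members were called in place of 20. With the allowance for the offset doubled, a setting chosen after seeing the data, Ggps1, Insig2, Mvd, Nsdhl and Stard4 were not called. Ggps1 (0.56) was not called with scaling to the 75th percentile either, and Ggps1 (0.44), Nsdhl (-0.98) and Stard4 (-0.41) were not called with spinal controls 3 and 4 only. Differences that kept their call in every alternative run still varied in size. Insig1 lay between -2.77 and -1.62, Sc5d between -2.08 and -1.21, and Msmo1 between -2.13 and -1.34. Fdft1 lay between -1.72 and -1.12, Hmgcs1 between -1.92 and -1.51, and Mylip between 2.33 and 3.75.

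Promoters of 5 members that moved far at spinal day 7, 4 of them down and Mylip up, are shown because sterol-regulated promoters commonly pair a sterol regulatory element with boxes for the factors NF-Y and Sp1. Each line gives the 250 bases before the start of the gene, 5′ to 3′ on the strand of the gene, from RefSeq on GRCm38.p6. Capitals mark the NF-Y box CCAAT in either direction (ATTGG where it lies on the other strand) and, in Hmgcs1 alone, a match to the sterol regulatory element searched as TCACNCCAC.
Hmgcs1 promoter, chr13:119690101-119690350, plus strand: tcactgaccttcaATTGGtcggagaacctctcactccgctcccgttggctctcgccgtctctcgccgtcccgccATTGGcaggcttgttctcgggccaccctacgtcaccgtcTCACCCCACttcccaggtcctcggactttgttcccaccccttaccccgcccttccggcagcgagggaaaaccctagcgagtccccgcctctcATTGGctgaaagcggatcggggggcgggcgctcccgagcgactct
Msmo1 promoter, chr8:64733579-64733828, minus strand: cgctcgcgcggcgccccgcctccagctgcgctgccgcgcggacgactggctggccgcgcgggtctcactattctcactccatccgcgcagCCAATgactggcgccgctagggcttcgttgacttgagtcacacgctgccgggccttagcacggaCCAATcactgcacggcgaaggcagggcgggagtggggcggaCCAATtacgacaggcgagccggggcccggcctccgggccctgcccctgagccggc
Sc5d promoter, chr9:42264301-42264550, minus strand: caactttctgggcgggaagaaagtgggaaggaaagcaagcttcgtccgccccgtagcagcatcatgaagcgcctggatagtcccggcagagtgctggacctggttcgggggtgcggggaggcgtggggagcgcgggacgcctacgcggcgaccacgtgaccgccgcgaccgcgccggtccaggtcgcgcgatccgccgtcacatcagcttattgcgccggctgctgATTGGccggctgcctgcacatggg
Insig1 promoter, chr5:28071162-28071411, plus strand: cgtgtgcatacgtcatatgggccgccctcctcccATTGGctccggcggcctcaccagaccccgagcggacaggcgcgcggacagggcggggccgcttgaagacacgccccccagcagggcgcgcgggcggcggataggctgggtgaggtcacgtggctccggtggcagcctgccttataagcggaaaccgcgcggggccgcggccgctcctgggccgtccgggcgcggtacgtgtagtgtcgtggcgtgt
Mylip promoter, chr13:45389492-45389741, plus strand: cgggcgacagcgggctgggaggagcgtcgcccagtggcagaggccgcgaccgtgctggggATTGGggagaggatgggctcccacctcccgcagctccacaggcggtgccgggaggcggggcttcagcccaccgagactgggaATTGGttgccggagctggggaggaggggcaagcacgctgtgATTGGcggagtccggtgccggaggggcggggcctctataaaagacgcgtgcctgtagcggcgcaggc

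CCAAT, counted on both strands, stood in this window in 20 of the 22 members with a promoter entry (90.9%), against 39.2% of 15691 measured genes with one. The Sp1 box GGGCGG, also on both strands, stood in 19 of 22 (86.4%), against 47.7% of the measured genes. TCACNCCAC stood in 1 member (4.55%), against 1.22%. The Hmgcs1 match, TCACCCCAC, lies at chr13:119690214-119690222 on the plus strand. Mylip, which rose, and Ggps1 and Insig2, which rose less, hold CCAAT as do Insig1, Msmo1, Sc5d and Hmgcs1, which fell. Nr1h3, which also rose, and Scap, which was not called, had a promoter entry without CCAAT. These counts are descriptions of letters, with no test. Fdps, Fdft1, Sqle and Stard4 had no entry in the promoter table.

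The spinal time course placed most of the fall after day 3. At spinal day 1, 4 members had risen and 2 had fallen, where 31.9% of all genes were called (15.8% as higher and 16.1% as lower). Hsd17b7, the sterol ketoreductase, stood at 1.53, 1.08, 1.33 and 0.76 at spinal day 1, against 0.03, 0.67, 0.10 and 0.12 in the spinal controls. Even the high second control lay below every day 1 array. It was 1.93-fold higher (0.95 ± 0.18, adjusted p = 0.000222). Mylip rose by 0.68 ± 0.14, Sqle by 0.47 ± 0.18 and Mvd by 0.40 ± 0.12. Dhcr7 stood at 0.40, 0.07, 0.32 and 0.48 at spinal day 1, against 0.66, 0.93, 0.83 and 0.71 in the spinal controls. It was lower in every day 1 array, by 0.47 on average (difference -0.47 ± 0.12, adjusted p = 0.00267). Cyp46a1 was called at -0.41 ± 0.15. Single arrays decided 3 of these 6 calls. Mvd was at 0.31 without spinal day 1 replicate 1, and Sqle was at 0.32 to 0.49 without spinal control replicate 1 or 3 or spinal day 1 replicate 1, 2 or 3. Cyp46a1 was at -0.41 to -0.32 without spinal control replicate 1, 3 or 4 or spinal day 1 replicate 2 or 3. With quantile normalisation Sqle (0.46) and Cyp46a1 (-0.18) were not called. The Sqle call also ended with scaling to the 75th percentile (0.45) and with spinal controls 3 and 4 only (0.44).

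At spinal day 3, 4 members had risen and 4 had fallen, where 24% of all genes were called (11.8% as higher and 12.2% as lower). Insig1 stood at 0.90, -0.25, -0.39 and -0.53 at spinal day 3, against 0.87, 1.03, 0.61 and 0.76 in the spinal controls. The first day 3 array was among the controls and the other arrays were below them. The difference was -0.89 ± 0.20 (adjusted p = 0.00264), and -1.21 without that array. Sc5d fell by 0.57 (SE 0.09, adjusted p = 0.000283), with 0.40, 0.41, 0.02 and 0.10 at spinal day 3, all below its controls. Dhcr7 fell by 0.75 (SE 0.12, adjusted p = 6.75e-05) and Cyp46a1 by 1.12 (SE 0.15, adjusted p = 2.72e-06). Mylip rose by 1.41 ± 0.14, with 0.17, 0.53, 0.90 and 0.74 at spinal day 3, all above its controls. Nr1h3 rose by 0.85 ± 0.18 and Hsd17b7 by 0.77 ± 0.18. Ebp rose by 0.49 ± 0.15, a call that ended without spinal control replicate 1 or 4 or spinal day 3 replicate 2, 3 or 4, at 0.39 to 0.49. Hmgcs1, Fdft1, Msmo1 and Srebf2, all fallen by day 7, were at -0.36, -0.27, -0.24 and -0.23 at day 3 and did not pass. With quantile normalisation Ebp (0.19) and Hsd17b7 (0.49) were not called. The Ebp call also ended with scaling to the 75th percentile (0.45), a doubled allowance, and spinal controls 3 and 4 only (0.46). Insig1 was at -0.27 and not called with the values as deposited, which lack the offset. Without spinal day 3 replicate 1 the count of members called was again 8.

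Between these stages, 12 members were lower and 1 was higher at spinal day 7 than at spinal day 3, where 8.41% of all genes were called (3.93% as lower and 4.49% as higher). Insig1 differed by -1.81 ± 0.20, Msmo1 by -1.78 ± 0.14 and Sc5d by -1.45 ± 0.09. Hmgcs1 and Fdps were both at -1.44, and Fdft1 at -1.36. Mylip was higher by 2.24 ± 0.14. Cyp46a1, lower than control on both days, was at -0.07 ± 0.15 between them. This comparison crosses 2 rebuilt offsets, and the count of 13 was 5 with quantile normalisation and 7 with a doubled allowance. The calls of Mvd, Mvk and Hsd17b7 here, at -0.72, -0.85 and -1.20, each ended without certain single arrays, spinal day 3 replicate 1 among them in all 3 genes. Mvd then stood at -0.74 to -0.67 without day 3 replicate 1, 2 or 3 or day 7 replicate 1, 2 or 4, Mvk at -0.79 to -0.76 without day 3 replicate 1 or day 7 replicate 4, and Hsd17b7 at -1.16 to -0.97 without replicate 1 of either day.

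In the cerebrum 3 to 5 of the 26 members were called on each day, no smaller a share than that of all genes. The 3 days share the same 4 cerebral controls, as the 3 spinal days share the 4 spinal ones. At cerebral day 1, 4 members rose and 1 fell, where 17.1% of all genes were called (8.91% as higher and 8.22% as lower). At cerebral day 3, 4 rose and 1 fell, where 8.42% of all genes were called (4.41% as higher and 4.01% as lower). At cerebral day 7, 3 rose and 0 fell, where 8.14% of all genes were called (5.27% as higher and 2.87% as lower). Over the 18 enzymes, 2 rose and 0 fell on each day. Fdft1 stood at -0.76, -0.60, -0.49 and -0.38 at cerebral day 7, against -0.26, -0.53, -0.49 and -0.53 in the cerebral controls. Insig1 stood at -1.28, -1.18, -1.02 and -1.05 at cerebral day 7, against -0.81, -0.70, -1.36 and -1.10 in the cerebral controls. In both genes the groups overlapped, and the differences were -0.11 ± 0.13 and -0.14 ± 0.20. Msmo1 and Sc5d were at -0.11 ± 0.14 and -0.15 ± 0.09 at cerebral day 7, and Srebf2 at -0.24 ± 0.11, none called. Other enzymes that were not called lay higher at cerebral day 7 than in the cerebral controls, without overlap. Their means were 0.18 against -0.54 for Nsdhl, 0.00 against -0.63 for Fdps and -0.06 against -0.57 for Cyp51. Of the 18 enzymes, 11 differed upwards and 7 downwards at cerebral day 7, with a median of 0.17, against -0.054 over all genes.

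Mylip and Ebp rose on all 3 days in the cerebrum. In Mylip the cerebral controls had -0.19, 0.09, 0.25 and 0.07. The day 1 arrays had 0.84, 0.86, 0.73 and 0.89, those of day 3 had 0.56, 1.00, 0.67 and 0.80, and those of day 7 had 1.39, 1.31, 1.31 and 0.95. No injured array overlapped a control. The rises were 0.77 ± 0.14, 0.71 ± 0.14 and 1.19 ± 0.14 (adjusted p = 0.000184, 0.00295 and 1.25e-06). Ebp rose by 0.53, 0.68 and 0.67 (SE 0.15 each). Its call ended at day 1 without cerebral control replicate 3 or day 1 replicate 1, at 0.42 to 0.43, and at day 7 without cerebral control replicate 3, at 0.56. With quantile normalisation Ebp was at 0.31 at day 1 and not called. With cerebral controls 1 and 2 only it was not called on any of the 3 days (0.39, 0.54 and 0.53), and with a doubled allowance it was not called at days 3 and 7. Mylip was not called at day 3 with cerebral controls 3 and 4 only (0.60). Cyp46a1 stood at 1.56, 1.43, 1.78 and 1.99 in the cerebral controls. The day 1 arrays had 0.90, 0.90, 0.83 and 0.90, those of day 3 had 0.45, 0.36, 0.67 and 0.45, and those of day 7 had 1.14, 1.57, 1.38 and 1.33. It was below all controls on days 1 and 3, and overlapped them on day 7. The differences were -0.80 ± 0.15 and -1.20 ± 0.15 (adjusted p = 0.000271 and 4.23e-06), and -0.33 ± 0.15 at day 7, which did not pass. Between cerebral day 7 and day 3, Cyp46a1 was the 1 member called, at 0.87 ± 0.15, where 0.538% of all genes were called (0.354% as higher and 0.185% as lower). It lost that call without day 3 replicate 1, 2 or 4 or day 7 replicate 2, 3 or 4, at 0.80 to 0.88, and also with scaling to the 75th percentile (0.83), a doubled allowance, and the values as deposited (0.48).

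The remaining cerebral calls were small. Hsd17b7 rose by 0.70 ± 0.18 at day 1 (adjusted p = 0.00854) and was at 0.64 at day 3, just outside the threshold (adjusted p = 0.0512). Lss rose by 0.59 ± 0.17 at day 3 (adjusted p = 0.0494), and Hmgcs1 by 0.62 ± 0.16 at day 7 (adjusted p = 0.0397). Nr1h3 rose by 0.58 ± 0.18 at day 1 and 0.63 ± 0.18 at day 3 (adjusted p = 0.027 and 0.0499). Each of these calls ended under some setting. Hsd17b7 at day 1 was at 0.68 and not called with cerebral controls 1 and 2 only. The calls of Lss, Nr1h3 at day 3 and Hmgcs1 ended with a doubled allowance. Those of Lss (0.23) and Hmgcs1 (0.69) ended with cerebral controls 1 and 2 only, and those of Hmgcs1 (0.55) and Nr1h3 (0.39 at day 1 and 0.44 at day 3) with cerebral controls 3 and 4 only. Single arrays also decided all but Hsd17b7. Lss was at 0.36 to 0.62 without cerebral control replicate 3 or 4 or any 1 of the day 3 arrays. Hmgcs1 was at 0.55 to 0.62 without cerebral control replicate 1, 2 or 4 or day 7 replicate 2, 3 or 4. Nr1h3 was at 0.46 to 0.57 at day 1 without cerebral control replicate 1 or 2 or day 1 replicate 3 or 4, and at 0.52 to 0.67 at day 3 without cerebral control replicate 1, 2 or 4 or day 3 replicate 2, 3 or 4.

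The difference between the responses of the tissues was tested directly, as the spinal change from control minus the cerebral change from control. At day 1, 0 of 26 members differed, where 11.3% of all genes did (4.7% as higher and 6.58% as lower); in limma, 2 members had an unadjusted p under 0.05. At day 3, 1 member was higher and 3 were lower, where 9.27% of all genes were called (4.08% as higher and 5.19% as lower). These were Mylip (0.70 ± 0.19), Insig1 (-0.98 ± 0.28), Hmgcs1 (-0.83 ± 0.23) and Sc5d (-0.52 ± 0.13). The Insig1 call at day 3 ended at -0.94 to -0.82 without cerebral control replicate 3 or 4, cerebral day 3 replicate 3 or 4, or spinal day 3 replicate 3 or 4. With quantile normalisation Insig1 (-0.64), Mylip (0.25) and Sc5d (-0.29) were not called at day 3. With cerebral controls 1 and 2 only, Insig1 (-0.74), Mylip (0.60) and Sc5d (-0.45) were not called, and with cerebral controls 3 and 4 only, Hmgcs1 (-0.76) was not. Insig1 (-0.84) was not called with spinal controls 3 and 4 only.

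At day 7, 18 members had a lower and 2 a higher response in the cord than in the cerebrum, where 27.6% of all genes were called (14.6% as lower and 13% as higher). The median over the members was -0.87, against -0.013 over all genes. Insig1 (-2.56 ± 0.28), Hmgcs1 (-2.41 ± 0.23), Msmo1 (-1.91 ± 0.20) and Sc5d (-1.87 ± 0.13) led the lower ones (adjusted p from 1.28e-10 to 8.72e-08). Cyp51 and Lss, which had not passed against the spinal controls, were called here at -1.22 ± 0.18 and -0.78 ± 0.24. Both, and also Nsdhl, Fdps and Sqle, had higher means at cerebral day 7 than in the cerebral controls, which adds to their differences here. The cerebral controls of Lss spread from -1.26 to -0.04, and with cerebral controls 1 and 2 only its difference was -0.42 and not called. Mylip (2.46 ± 0.19) and Nr1h3 (0.92 ± 0.26) were higher. Insig2, Ggps1 and Scap were at 0.09, 0.28 and 0.04 and did not pass. The Insig2 and Ggps1 changes ran the same way in both tissues, with 0.65 ± 0.16 and 0.34 ± 0.16 at cerebral day 7, neither called. The Mvk call, at -0.56 ± 0.19, ended without cerebral control replicate 2 or 4, spinal control replicate 2, cerebral day 7 replicate 2 or 4, or spinal day 7 replicate 4, at -0.53 to -0.39. With quantile normalisation Cyp46a1 was at 0.25 in place of -0.85, and the calls of Mvk (-0.18), Nr1h3 (0.36) and Srebf2 (-0.43) ended. The calls of Mvk (-0.42) and Nr1h3 (0.73) also ended with cerebral controls 1 and 2 only, and those of Mvk (-0.57) and Stard4 (-0.64) with spinal controls 3 and 4 only. The leading members kept their calls in every alternative run, at sizes that varied. Mylip lay between 0.82 and 2.56, Insig1 between -2.80 and -1.45, and Hmgcs1 between -2.55 and -2.25. Msmo1 lay between -2.01 and -1.29, and Sc5d between -1.94 and -1.20.

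**Figure D3:**
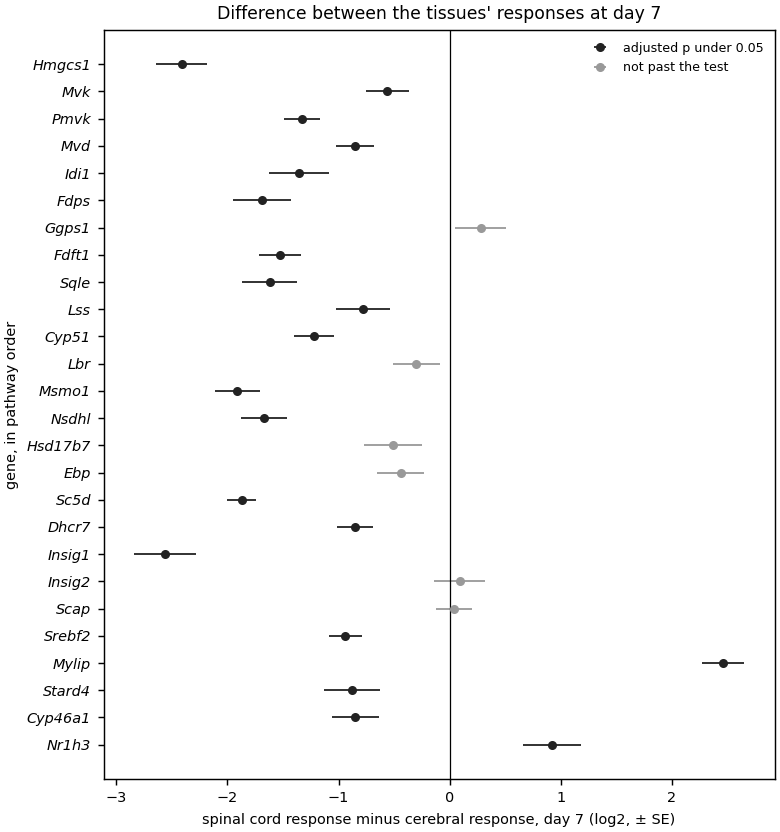
Spinal response minus cerebral response at day 7 for the 26 members, in pathway order down the page, as log2 difference with bars of ± 1 SE (4 arrays in each of 4 groups). Black points had an adjusted p under 0.05. Of the 20 black points, 18 lie left of 0, and Mylip and Nr1h3 lie right of it.

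The tissues also differed without injury. Of the members, 18 were higher and 4 lower in spinal than in cerebral controls, where 34.8% of all genes were called (17.2% as higher and 17.6% as lower). Of the 18 enzymes, 17 were higher in the spinal controls, and Ggps1 alone was lower, at -0.91 ± 0.16. Insig1 stood at 0.87, 1.03, 0.61 and 0.76 in the spinal controls, against -0.81, -0.70, -1.36 and -1.10 in the cerebral controls. Cyp46a1 stood at -0.83, -1.55, -0.86 and -1.10 in the spinal controls, against 1.56, 1.43, 1.78 and 1.99 in the cerebral controls. The groups were far apart in both genes, in opposite directions. Insig1 was 3.51-fold higher in the cord (1.81 ± 0.20), and Cyp46a1 6.83-fold lower (-2.77 ± 0.15, adjusted p = 7.07e-16). Sc5d (1.55), Msmo1 (1.36), Ebp (1.36) and Nsdhl (1.31) were the enzymes furthest above the cerebrum. Mylip was lower in the spinal controls, at -0.88 ± 0.14. Insig2 was lower at -0.43 ± 0.16, a call that ended without any 1 of the 4 spinal controls or of cerebral controls 2, 3 and 4, at -0.45 to -0.34, and also with cerebral controls 1 and 2 only (-0.29) or spinal controls 3 and 4 only (-0.48). Srebf2, Scap, Stard4 and Nr1h3 were not called.

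This difference held for most members through day 3 and for few at day 7. Of the 18 members higher in the spinal controls, 17 were also called higher in the cord at day 1 and 16 at day 3. At day 7, 3 of the 18 were still higher in the cord (Ebp, Hsd17b7 and Lbr), 7 were not called, and 8 were called lower (Hmgcs1, Pmvk, Fdps, Fdft1, Msmo1, Nsdhl, Sc5d and Insig1). Hmgcs1 stood at -1.34, -1.12, -0.64 and -0.94 at spinal day 7, against -0.24, 0.27, 0.25 and 0.35 at cerebral day 7. Its groups did not overlap, as they had not in the opposite order in the controls. The difference of Hmgcs1 was 1.25 in controls, 0.70 at day 1, 0.42 at day 3 and -1.17 at day 7 (SE 0.16 each). Mylip, lower in the spinal controls, was higher in the cord at day 7, with a difference of 1.58 ± 0.14. Over all genes, 36.1% were called between the tissues at day 1 (17.3% as higher in the cord and 18.7% as lower), 37.7% at day 3 (18.8% and 18.9%) and 47.1% at day 7 (22.8% and 24.3%). With quantile normalisation only 2 of these 8, Hmgcs1 (-0.77) and Pmvk (-0.54), were still called lower at day 7. Fdps (-0.34), Nsdhl (-0.27), Fdft1 (0.07) and Msmo1 (0.24) were then not called, and Insig1 (0.52) and Sc5d (0.56) were called as higher in the cord. Mylip (-0.11) and Stard4 (-0.31) were not called under it either. The day 7 calls of Fdps, Nsdhl, Lbr and Stard4, at -0.53, -0.36, 0.39 and -0.48, also rested on single arrays. They ended at -0.48 to -0.45 for Fdps, without cerebral replicate 4 or spinal replicate 1, at -0.35 to -0.29 for Nsdhl, without cerebral replicate 2, 3 or 4 or spinal replicate 2 or 3, at 0.31 to 0.37 for Lbr, without replicate 2 or 4 of the cerebrum or 1 or 4 of the cord, and at -0.44 to -0.42 for Stard4, without replicate 1 or 4 of either tissue. At day 3 the Hmgcs1 call ended without cerebral replicate 1 or 2 or spinal replicate 1, 2 or 3, at 0.32 to 0.41, and with quantile normalisation (0.31) or scaling to the 75th percentile (0.35).

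**Figure D4:**
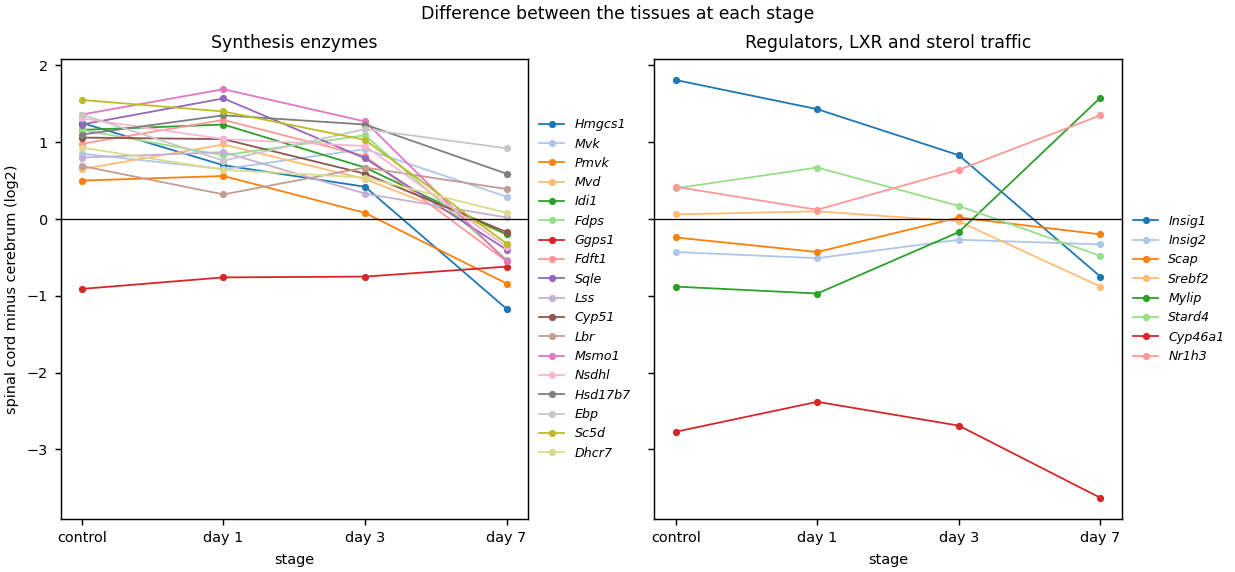
Spinal cord minus cerebrum (log2, vertical axis) in controls and at days 1, 3 and 7 for the 18 enzymes (left) and the other 8 members (right), each line a gene and each point a difference between means of 4 arrays. In controls 17 enzymes lie above 0, and at day 7 only 6 of 18 do, while Mylip crosses upwards and Cyp46a1 stays lowest throughout.

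Genes next to the pathway were read from lists of related genes. These lists, and those of cell type markers below, were chosen with earlier results of these data known, so their counts are descriptions with no list test. Of the 7 measured LXR target genes, all 7 rose at spinal day 7, with a median of 1.44, where 16.3% of all genes were called as higher. Abca1, the transporter that loads cholesterol onto lipoproteins, stood at 5.23, 5.25, 4.71 and 4.57 at spinal day 7, against -0.33, 0.43, -0.46 and -0.42 in the spinal controls (35.1-fold higher, 5.13 ± 0.23). Apoe, the main lipoprotein component of brain, stood at 3.02, 3.16, 3.03 and 2.78 at spinal day 7, against 0.28, 0.45, 0.09 and 0.44 in the spinal controls (2.68 ± 0.22). Neither gene overlapped its controls. The phospholipid remodelling gene Lpcat3 (1.96), Apoc1 (1.44), the transfer protein Pltp (1.39), Smpdl3a (1.26) and the efflux transporter Abcg1 (1.15) rose as well. All 7 also differed between the responses of the tissues at day 7, where 27.6% of all genes did, with a median of 1.01. In the cerebrum 3, 2 and 4 of the 7 rose at days 1, 3 and 7 (8.91%, 4.41% and 5.27% of all genes), among them Abca1 by 1.59, 1.32 and 2.10.

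Of 15 measured genes of SREBP processing and other sterol handling, 4 rose and 2 fell at spinal day 7, where 16.3% of all genes were called as higher and 18.4% as lower. Ch25h, which makes an oxysterol that binds INSIG proteins, rose by 3.78 ± 0.26, and Npc2, which moves cholesterol out of lysosomes, by 1.72 ± 0.13. Of 16 measured genes of SREBP-1 and fatty acid synthesis, 1 rose and 5 fell, among them Acss2, an acetyl-CoA synthetase (-1.24 ± 0.11), and Fads1, a fatty acid desaturase (-1.06 ± 0.11). The median of that list was -0.34 at spinal day 7, against -0.096 over all genes. At cerebral day 1, 9 of the 16 rose and 0 fell, where 8.91% of all genes were called as higher, with Mid1ip1, an activator of fatty acid synthesis, at 1.00 ± 0.13 and the desaturase Fads2 at 0.86 ± 0.15. The isoprenoid branch, which uses the same precursors for prenyl groups, dolichol and ubiquinone, had 1 of 8 genes higher and 1 lower at spinal day 7. Dhdds, which makes dolichol, rose by 0.76 ± 0.11, and Fntb, a farnesyltransferase subunit, fell by 0.52 (SE 0.13). That list's median was -0.21, against -0.096 over all genes.

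Marker genes of cell types were read beside these results, against the 16.3% of all genes called as higher and 18.4% as lower at spinal day 7. There, 2 of 10 markers of mature oligodendrocytes and myelin fell and 0 rose, a share near that of all genes, with Opalin at -2.02 ± 0.25 and Ugt8a at -1.27 ± 0.32, while Mbp was at -0.41 ± 0.11 and Cnp at 0.06 ± 0.14 and neither passed. Their mean log2 value per array ran from 0.45 to 0.76 at spinal day 7, against 1.12 to 1.59 in the spinal controls. At spinal day 1, 6 of the 10 fell in a test against 0, where 16.1% of all genes were called as lower, with means of 0.28 to 0.78. The day 7 test used a bound, so the counts of the 2 days are not alike, and the array means of these days overlapped. In the same day 1 test 3 of the 18 enzymes rose and 1 fell. The mean of the 18 enzymes ran from 0.46 to 0.79 at spinal day 1 and from -0.54 to -0.35 at spinal day 7, against 0.25 to 0.66 in the spinal controls. Of 7 neuron markers 6 fell at spinal day 7, with array means of -1.55 to -0.81, against 0.15 to 0.26 in the spinal controls. All 6 macrophage and phagocyte markers rose, with means of 4.31 to 4.90 at spinal day 7, against -0.76 to 0.14, and 5 of 6 fibroblast markers rose. The fibroblast means were 3.51 to 4.13 at spinal day 7, against -0.61, 1.73, -0.69 and 0.65 in the spinal controls, whose replicate 2 was highest. Among the other lists at spinal day 7, 3 of 8 astrocyte markers, 3 of 5 microglia markers and 1 of 2 Schwann cell markers rose and 0 fell. Oligodendrocyte precursor markers had 2 of 5 higher and 1 lower, and endothelial markers 3 of 6 higher and 1 lower. In the cerebrum at day 7, the macrophage markers ran from 1.99 to 2.45, against -0.79 to -0.48 in the cerebral controls. The Schwann cell means were 0.03 to 0.64 at spinal day 7, against -0.44, 1.06, -0.69 and 0.15 in the spinal controls, and overlapped them. The part of these cell type changes in the members' results was not tested.

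**Figure D5:**
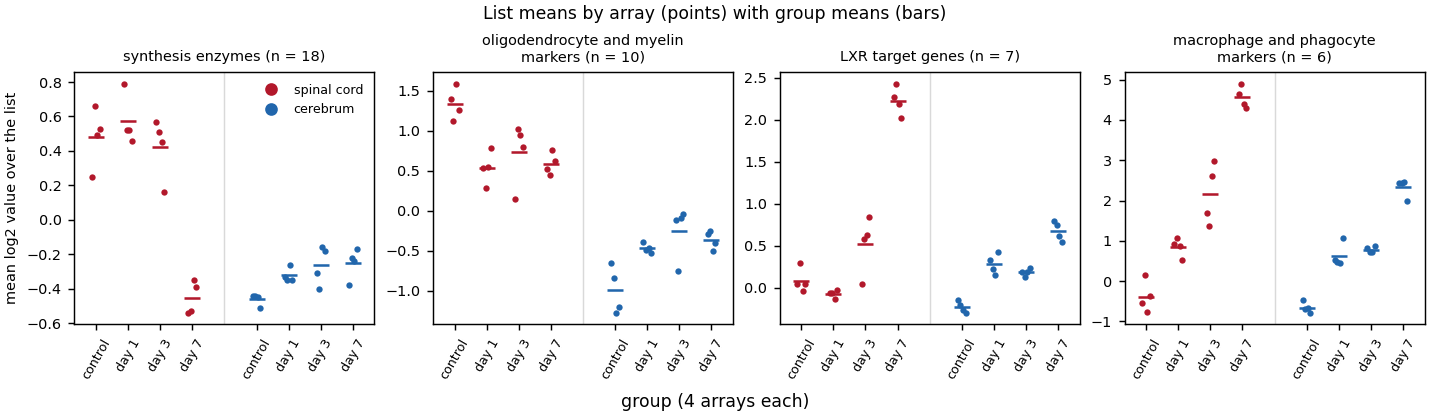
Mean log2 value per array over the 18 enzymes, 10 oligodendrocyte and myelin markers, 7 LXR target genes and 6 macrophage and phagocyte markers, with spinal cord left and cerebrum right in each panel, from control to day 7. Points are arrays and bars are means of 4. Within the cord the enzymes are lowest at day 7 and the myelin markers are down from day 1 on, and the LXR targets and macrophage markers peak at spinal day 7.

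Between the control tissues, all 10 oligodendrocyte and myelin markers were higher in the spinal controls, with a median of 2.41, where 17.2% of all genes were called as higher. All 6 skeletal muscle markers were higher too, with array means of 4.34, 3.72, 1.69 and 0.32 in the spinal controls, against -0.30 to -0.11 in the cerebral controls. The muscle markers differed widely among the spinal controls, as the fibroblast and Schwann cell markers did. At spinal days 1, 3 and 7, 6, 6 and 4 of the 6 muscle markers were lower, where 16.1%, 12.2% and 18.4% of all genes were called as lower. With spinal controls 3 and 4 only, 17 of 26 members were still called at spinal day 7, and Ggps1, Nsdhl and Stard4 were not.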

How the data were processed

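Gene expression in 32 samples was measured on arrays, per the labels' protocols from biotin-labelled material made from 10 ng of total RNA extracted with TRIzol. The log2 values used here were deposited by the authors as a table of 22206 probes, centred per probe as the values show, with values from -5.582 to 8.042; the software, the summarisation and the genome build were not given in the sources used here, and the log base was taken as 2. Of the probes, 19572 have 1 gene symbol in the platform annotation and 2634 have none. They give 19505 genes, 55 of them as the mean of several probes. The number of arrays limits the precision, and array medians lay between -0.05531 and 0.03325.

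The control and day 1 arrays have a median of 0 in 100% of probes and share 1 centring. No label describes the centring of day 3 and day 7. Each of these days together with the 8 controls matched a median of 0 in 86.86% and 86.42% of the probes that allow the test, against 54.36% to 75.59% for other partners, so the offset was rebuilt per probe on that assumption. It was settled as a single value in 74.57% of probes at day 3 and 76.82% at day 7. Differences of these days from control were tested against a bound made of the remaining width plus an allowance of 0.1205 or 0.1455, the 99th percentile of the mismatch.

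Groups were compared in limma 3.58.1 (R 4.3.3) with 8 group means over all arrays, and p-values were adjusted by Benjamini-Hochberg over all genes. Tables were made in Python 3.11.15 with pandas 2.3.3 and numpy 2.4.6, figures with matplotlib 3.10.9. All members were eligible to be named. Of the lists of related genes and of cell type markers, any gene could be named. The members and lists were chosen with earlier results of these data known. Alternatives were quantile normalisation, scaling to the 75th percentile, array weights, a filter on variance, the most variable probe, the values as deposited, an exact offset, a doubled allowance, subsets of the controls, and each array left out.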

Additional observations from a re-analysis of the deposited data

Results flagged for a closer look

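In 12 of 208 groups of 4 arrays, 1 array lay far from the other arrays of its group by Dixon's criterion, which chance meets in about 1 in 20 groups. Spinal control replicate 1 was low in Idi1 (0.18, nearest other array 1.03) and in Ggps1 (-0.99, nearest -0.41). Spinal control replicate 2 was high in Hsd17b7 (0.67, nearest 0.12) and in Mylip (-0.51, nearest -0.89). Spinal day 1 replicate 1 was high in Fdft1 (1.01, nearest 0.82). At spinal day 3, replicate 1 was high in Mvk (0.67, nearest 0.35) and Lbr (1.31, nearest 0.58), and replicate 4 was low in Insig2 (-0.53, nearest 0.25). In the cerebrum, control replicate 2 was high in Pmvk (-0.01, nearest -0.16), control replicate 1 was high in Fdft1 (-0.26, nearest -0.49), day 7 replicate 1 was low in Nsdhl (-0.00, nearest 0.22), and day 1 replicate 3 was low in Cyp46a1 (0.83, nearest 0.90).

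The spinal response minus the cerebral response passed limma's test of that difference in 4 members at day 3, with Hmgcs1 at -0.83, Insig1 at -0.98, Sc5d at -0.52 and Mylip at 0.70. At day 7 it passed in 20 members. In the mevalonate arm these were Hmgcs1 (-2.41), Fdps (-1.69), Idi1 (-1.36), Pmvk (-1.33), Mvd (-0.85) and Mvk (-0.56). From squalene to cholesterol they were Sqle (-1.62), Fdft1 (-1.53), Lss (-0.78), Msmo1 (-1.91), Sc5d (-1.87), Nsdhl (-1.67), Cyp51 (-1.22) and Dhcr7 (-0.85). Among the other members they were Insig1 (-2.56), Srebf2 (-0.94), Stard4 (-0.88), Cyp46a1 (-0.85), Nr1h3 (0.92) and Mylip (2.46).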

How the results depend on the processing

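Of 390 pairs of a member and a comparison, 166 were called, 113 of these kept their call under every alternative run, and 53 lost it under at least 1. The number of members called stayed within 1.5 times for spinal cord against control on each day, for the day 7 responses and for the tissues on the same day. At cerebral day 1 the 5 calls became 8 with quantile normalisation and 3 with cerebral controls 1 and 2 only. At cerebral day 3 the 5 calls became 8 with quantile normalisation, 9 with an exact offset, 2 with a doubled allowance, and 3 with controls 1 and 2 or 3 and 4 only. At cerebral day 7 the 3 calls became 8 with quantile normalisation, 5 with array weights, 14 as deposited, 8 with an exact offset, and 1 with a doubled allowance or controls 1 and 2 only. The 0 calls of the day 1 responses became 5 with quantile normalisation, and 1 with scaling to the 75th percentile, array weights, the variance filter or cerebral controls 3 and 4 only. The 4 calls of the day 3 responses became 1 with cerebral controls 1 and 2 only. Cerebral day 7 against day 3 had 0 in place of 1 with 75th percentile scaling or a doubled allowance, and 3 as deposited or with an exact offset. Spinal day 7 against day 3 had 5 in place of 13 with quantile normalisation, 20 with an exact offset and 7 with a doubled allowance. Leaving out 1 array at a time in limma gave 3 to 5 calls at cerebral day 3 (3 without control replicate 4 or day 3 replicate 3 or 4), 0 to 2 for the day 1 responses (1 without cerebral control 2, spinal control 1 or cerebral day 1 replicate 4, and 2 without spinal day 1 replicate 1), 0 to 1 for cerebral day 7 against day 3, and 18 to 21 at spinal day 7. Directions turned for Sc5d at cerebral day 1 (-0.30) with quantile normalisation, and for Fdft1 (0.40), Insig1 (0.94), Msmo1 (0.57) and Sc5d (0.67) at cerebral day 7 and Sc5d at cerebral day 7 against day 3 (0.42) with the values as deposited, which lack the offset. Quantile normalisation also turned the day 7 response of Cyp46a1 (0.25) and the day 7 tissue differences of Fdft1 (0.07), Insig1 (0.52), Msmo1 (0.24), Mylip (-0.11) and Sc5d (0.56). The cause was not tested. The doubled allowance was chosen after seeing the data. No paired analysis was possible because nothing in the labels links arrays of different groups.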
